A study of Mus musculus with 19 samples.

Results

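The comparison described here set 2 mesenchymes of the mouse embryo against each other at embryonic day 16 (E16). The urogenital sinus mesenchyme (UGM), the connective tissue of a visceral organ from which the prostate and the neck of the bladder form, was measured in 5 samples, and dermis, the mesenchyme of the skin of the back, in 4 samples. The samples were taken by their titles and make up 9 of the 19 arrays of the series, the others being 6 of urogenital sinus epithelium (UGE) and 4 of epidermis. All embryos were of the C57BL/6 strain, and no genotype, drug or culture step set the groups apart. Each sample was a pool of tissue from several embryos, and skin and urogenital sinus were dissected from the same embryos, so that a pool of UGM and a pool of dermis can share animals. UGM was freed of its epithelium with trypsin, whereas dermis was lifted off the epidermis by hand after a night in Dispase in the cold. The body site and the way the layers were separated therefore cannot be told apart in any difference below.

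Mesenchyme carries positional information that tells the overlying epithelium what to become: urogenital mesenchyme can induce prostatic ducts, and dermis induces hair follicles. Its position is written largely in transcription factors, among them the Hox genes, whose members toward the 5′ end of each cluster mark the posterior of the body, and the forkhead, T-box, GATA and basic helix-loop-helix factors of the visceral mesoderm. Visceral mesenchyme of this age also lays down smooth muscle and receives autonomic nerves, while dermis deposits fibrillar collagen and holds mast cells, lymphatic vessels and pigment cells.

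RNA was hybridised to MOE430 2.0 arrays, and all levels below are log2 of the deposited intensity of 1 probe set per gene, the brightest one. The median of an array lay at 6.26 to 6.35 in UGM and at 6.25 to 6.29 in dermis, and its lower quartile at 4.76 to 4.83 in UGM and at 4.80 to 4.84 in dermis, so a level under about 5 lies among the dimmest probe sets. Within groups the arrays correlated at 0.980 to 0.997 in UGM and at 0.986 to 0.994 in dermis. The lowest labelling control, BioB, lay at 7.67 to 8.46 in UGM and at 8.94 to 9.14 in dermis without overlap, and its part in the differences was not tested.

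Of 41549 probe sets tested, 5246 (12.6%) were called, that is, differed by over 2-fold at a Benjamini-Hochberg adjusted p under 0.01 in limma. They comprised 2962 (7.13%) that were higher in UGM and 2284 (5.5%) that were higher in dermis. Over genes, 2469 of 17360 (14.2%) were called, of which 1226 (7.06% of all genes) were higher in UGM and 1243 (7.16%) were higher in dermis. The samples of the 2 groups did not overlap for 6961 genes (40.1%), and for 2448 of the 2469 called genes. Differences are UGM minus dermis throughout, and their median over all genes was -0.07. As these are whole tissues, fewer cells of a type and less RNA per cell cannot be told apart.

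Dermis carried transcripts of the epidermis, and UGM carried hardly any of its own epithelium. Of 22 measured genes of epidermal differentiation, 18 were higher in dermis than in UGM, against 7.16% of all genes, with a median difference of -3.56 against -0.07 over all genes. Dsc1, a desmosomal cadherin of the upper epidermal layers, lay at 3.88, 3.96, 3.81, 4.04 and 3.85 in the 5 UGM samples, against 11.97, 9.28, 10.92 and 11.67 in the 4 dermis samples (difference -7.05, SE 0.43, adjusted p = 4.4e-07). UGM was at the bottom of the scale in every sample, and dermis replicate 2 was the lowest of the dermis samples. Hrnr, which encodes hornerin of the cornified envelope, differed by -7.49 (SE 0.47), and Krt1, a keratin of the suprabasal layers, by -7.02 (SE 0.37).

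The basal layer list behaved likewise, with 13 of 17 measured members higher in dermis and a median difference of -3.38. Krt14, a keratin of basal keratinocytes, lay at 4.90, 6.15, 5.30, 5.25 and 5.20 in UGM, against 13.28, 12.51, 12.68 and 12.68 in dermis (difference -7.42, SE 0.24, adjusted p = 3.01e-09). The dermis samples were all far above the UGM samples and differed little among themselves, unlike Dsc1 above. Col17a1, the hemidesmosomal collagen that anchors basal keratinocytes, differed by -5.84 (SE 0.14). The 1 member higher in UGM was Igfbp2, an insulin-like growth factor binding protein (1.80, SE 0.17).

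Taken over the list in each sample, the median level of the differentiation genes was 5.26, 5.31, 5.14, 5.09 and 5.29 in UGM replicates 1 to 5, against 9.98, 7.40, 8.14 and 8.88 in dermis replicates 1 to 4. Dermis replicate 1 was thus the richest in epidermal transcripts and replicate 2 the poorest. Relative to epidermis and above the level in UGM, the differentiation genes stood at 46.6%, 6.75%, 12.9% and 30.3% of the epidermal level in dermis replicates 1 to 4 (median of 18 genes). The basal genes stood at 60.6%, 36.0%, 46.8% and 45.1% (median of 11 genes), so the 2 lists gave different shares for the same sample. The genes of the urogenital sinus epithelium reached 0.154% to 1.49% of the UGE level in the UGM samples (median of 12 genes, measured above the level in dermis), with the highest share in UGM replicate 2. Mesenchymal genes in general were high in both tissues, with list medians of 11.53 to 12 in UGM and 11.84 to 12.4 in dermis, as the labels of both groups say. The ranges overlapped, with UGM replicate 1 above dermis replicate 1.

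**Figure D1:**
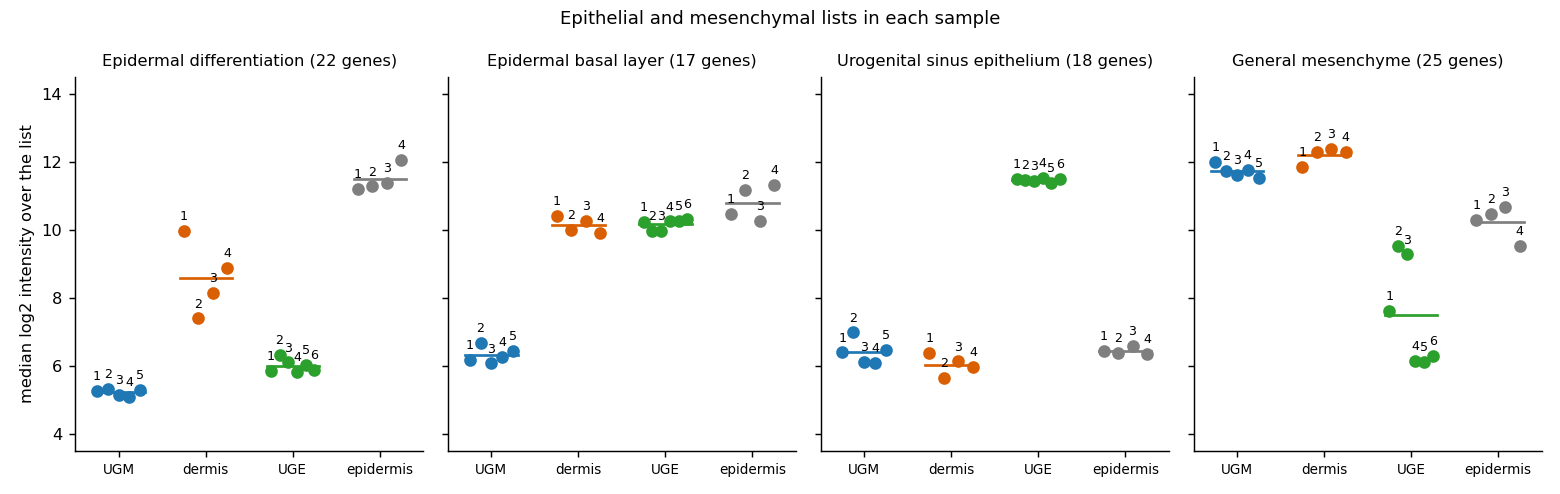
Median log2 intensity of 4 gene lists in each sample of UGM, dermis, UGE and epidermis; numbers are replicates and lines are group means of the samples. Dermis replicates spread from 7.40 to 9.98 for the epidermal differentiation list, while the 5 UGM samples lie at 5.09 to 5.31.

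To separate this carry-over from genes of the mesenchyme itself, the called genes were sorted by the same test between epidermis and dermis, in which 1014 of all genes (5.84%) were higher in epidermis and 1927 (11.1%) were lower. This second comparison shares the dermis samples, so the sorting is a description. Of the 1243 genes higher in dermis than in UGM, 405 (32.6%) were higher still in epidermis, 510 (41%) were lower in epidermis than in dermis, and 328 (26.4%) were neither. The highest dermis value lay in replicate 1, the sample richest in epidermal transcripts, for 381 of the 405 genes (94.1%), for 144 of the 328 (43.9%), and for 40 of the 510 (7.84%), against 34.6% of all genes. Among the 510, replicate 2 held the highest value for 246 genes (48.2%).

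The genes with the widest difference among the 405 were epidermal. Them5 differed by -7.48 (SE 0.45), Perp, a desmosomal protein, by -5.89 (SE 0.37) and Calm4, a calmodulin-like protein of keratinocytes, by -5.85 (SE 0.49). Calm4 lay at 4.81, 5.11, 5.03, 5.005 and 4.62 in UGM, against 12.12, 9.32, 9.94 and 11.68 in dermis, in the same order of dermis replicates as Dsc1. Several keratinocyte genes fell outside the 405 because dermis and epidermis did not differ past the threshold, among them Krt14, Krt5 (-5.99, SE 0.38), Krtdap (-7.27, SE 0.39), Hrnr, Krt1 and the desmosomal Dsp (-5.08, SE 0.36). The 328 genes called neither way thus hold epidermal genes too, and 182 of them had a higher mean in epidermis than in dermis.

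For genes higher in UGM the sorting used UGE against UGM, in which 6.75% of all genes were higher in UGE and 10% were lower; it shares the UGM samples. Of the 1226 genes higher in UGM than in dermis, 47 (3.83%) were higher in UGE, 689 (56.2%) were lower in UGE and 490 (40%) were neither. UGE replicates 1 to 3 carried mesenchymal transcripts (general mesenchyme list medians 7.61, 9.52 and 9.28, against 6.11 to 6.29 in replicates 4 to 6). The 490 can therefore hold mesenchymal genes too. Krt18, a keratin of simple epithelia, was among the 47 (9.28 ± 0.39 in UGM, n = 5, and 6.31 ± 0.69 in dermis, n = 4, SD; difference 2.96, SE 0.30). Foxa1, a forkhead factor of the urogenital epithelium, was another, with 7.29, 8.64, 7.05, 6.69 and 6.99 in UGM and 5.75, 5.65, 5.79 and 5.38 in dermis (difference 1.69, SE 0.33, adjusted p = 0.00184). Its highest value lay in UGM replicate 2, the sample with the highest share of epithelial transcripts. Krt4, a keratin of stratified epithelia on the same epithelial list, was lower in UGM (-3.90, SE 0.62) and was higher in epidermis than in dermis.

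As a second approach, an epidermal share was subtracted from each dermis sample on the linear scale, at the share given by the differentiation list or by the basal list. With the share of the differentiation list, 32 of the 405 genes were still called higher in dermis, against 249 of the 328 and all 510 of the 510. With the share of the basal list, 1 of the 405 and 192 of the 328 were still called. Of the 405, 243 were now called higher in UGM with the basal share and 33 with the differentiation share. By construction, a gene that is higher in epidermis loses from the subtraction, so the drop among the 405 is no separate evidence. A gene that is lower in epidermis can only gain from it. The epidermis arrays themselves carried mesenchymal transcripts (general mesenchyme list medians 9.52 to 10.67), which makes this gain smaller but does not undo it. General mesenchyme genes called higher in dermis numbered 5 before subtraction, 10 with the differentiation share and 15 with the basal share. Leaving out dermis replicate 1 kept 341 of the 405, 286 of the 328 and 502 of the 510 calls.

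**Figure D2:**
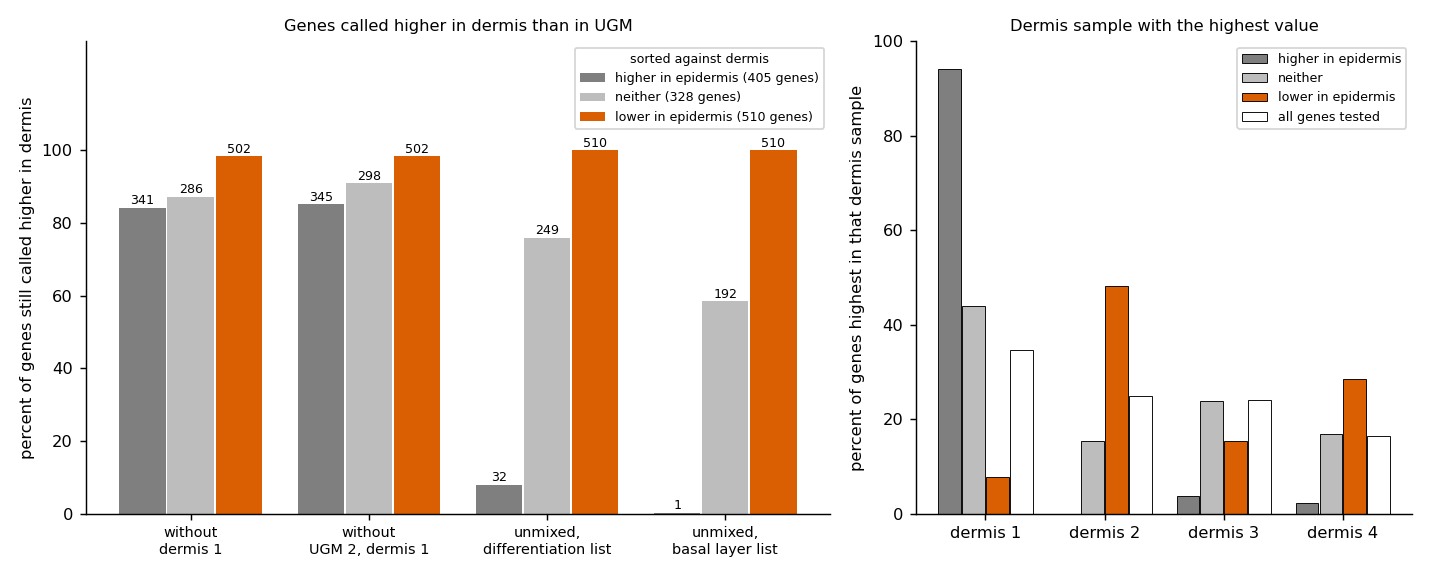
Left, percent of genes called higher in dermis than in UGM that stayed called when samples were left out or an epidermal share was subtracted, by their class in epidermis against dermis; numbers over the bars are genes. Right, percent of each class, and of all genes tested, whose highest dermis value lay in each dermis replicate; 94.1% of the genes higher in epidermis peaked in dermis replicate 1.

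The genes named below as higher in dermis belong to the 510 that were lower in epidermis than in dermis, unless stated otherwise. At their head stood Cpa3 and Cma1 of mast cells, and the widest differences belonged to genes of several cell types. Among them were Lyve1 of lymphatic vessels, Myh3 of skeletal muscle, F13a1 of macrophages and Fabp4 of adipocytes (described with those cell types). The factors Zic1 and Shox2 and the matrix gene Dpt were among them too. Dpt, which encodes the dermal matrix protein dermatopontin, lay at 7.14, 7.00, 6.63, 6.74 and 7.46 in UGM, against 12.33, 12.67, 12.70 and 12.61 in dermis (48.0-fold lower in UGM, adjusted p = 1.87e-09). Every UGM sample was far below the lowest dermis sample.

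Transcription factors of visceral mesenchyme set UGM apart. Of 31 measured members of this list, 16 were higher in UGM and 1 was lower, against 7.06% and 7.16% of all genes, and their median difference was 1.36. Tcf21, a basic helix-loop-helix factor of visceral mesoderm, lay at 12.83, 12.88, 12.86, 12.82 and 12.99 in UGM, against 4.60, 4.41, 4.47 and 4.76 in dermis (difference 8.32, SE 0.09, 319-fold, adjusted p = 3.79e-12). All UGM samples were near the top of the scale and all dermis samples under the lower quartile of the array.

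Isl1, a LIM homeodomain factor, lay at 12.94, 12.80, 12.51, 12.63 and 12.29 in UGM, against 6.80, 7.04, 6.83 and 6.55 in dermis (56.8-fold higher in UGM, adjusted p = 5.8e-10). Isl1 and Hand2 (difference 5.01, SE 0.15), a basic helix-loop-helix factor, are also in the neuron list used below. Hand2 had 1 of its 3 probe sets called, and its median over them was 0.38. Sall1, a zinc finger factor of the urogenital ridge and kidney, differed by 5.50 (SE 0.24), and Eya1, a phosphatase that acts as a cofactor of homeobox proteins, by 5.01 (SE 0.12). Six2, a homeobox gene of the kidney and its surrounding mesenchyme, was 4.20-fold higher in UGM. For each of these genes every UGM sample was above every dermis sample.

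Nr2f1, an orphan nuclear receptor, differed by 4.58 (SE 0.21), and its relative Nr2f2, known in visceral mesoderm and in veins, by 1.45 (SE 0.09), with 5 of its 6 probe sets called the same way. Wt1, a zinc finger factor of mesothelium and gonad, lay at 10.31, 10.30, 9.25, 8.98 and 9.31 in UGM, against 4.87, 5.70, 5.17 and 5.24 in dermis (difference 4.38, SE 0.29, adjusted p = 8.38e-07). UGM replicates 1 and 2 were clearly above the other UGM samples. Gata5 (4.08, SE 0.25), Foxf2 (3.84, SE 0.18), Tbx3 (3.78, SE 0.13) and Tbx2 (3.59, SE 0.15), factors of visceral and cardiac mesoderm, followed. Tshz3, needed for smooth muscle of the ureter, differed by 2.21 (SE 0.18), and Pitx1, a hindlimb and pelvic factor, by 1.36 (SE 0.18).

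Osr2, an odd-skipped factor of urogenital mesenchyme, had the weakest call of the list (1.54, SE 0.36, adjusted p = 0.00592), and leaving out UGM replicate 1 or dermis replicate 1, 3 or 4 ended it, with differences of 1.33 to 1.63. Tbx18, a factor of the ureter and of the dermal papilla, went the other way and was 3.87-fold lower in UGM.

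Of 14 measured Hox genes of paralogue groups 9 to 13, 6 were higher in UGM (median difference of the list 0.83), and the other members were not called. Hoxd13, the last gene of its cluster, lay at 12.72, 12.33, 12.79, 12.91 and 12.55 in UGM, against 5.81, 5.79, 5.37 and 5.70 in dermis (128-fold, adjusted p = 1.85e-10). The remaining differences were 3.50 for Hoxd10, 2.90 for Hoxa10, 2.74 for Hoxc10, 2.63 for Hoxa11 and 1.86 for Hoxa9 (SE 0.12 to 0.17). For each of the 6, all UGM samples were above all dermis samples.

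Of 19 measured Hox genes of groups 1 to 8, 6 were lower in UGM (median difference -0.49). Hoxc5 lay at 5.08, 5.04, 4.80, 4.82 and 4.92 in UGM, against 9.21, 9.51, 9.42 and 8.54 in dermis (18.9-fold lower in UGM, adjusted p = 2.25e-08). Hoxc8 (-3.72, SE 0.22), Hoxc4 (-2.27, SE 0.09), Hoxd8 (-1.97, SE 0.15) and Hoxd1 (-1.27, SE 0.21) went the same way. Hoxc4 was neither higher nor lower in epidermis than in dermis. Hoxa4 (-1.03, SE 0.17) was higher still in epidermis, lost its call without dermis replicate 1 (-0.82) and changed sign to 0.35 after subtraction of the basal share.

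Of 27 measured factors known from skin and body wall mesenchyme, 8 were lower in UGM and 1 was higher (median difference -0.33). Zic1, a zinc finger factor of dorsal mesoderm, lay at 3.47, 3.53, 3.78, 3.67 and 3.68 in UGM, against 9.77, 10.47, 10.60 and 9.76 in dermis (difference -6.53, SE 0.18, adjusted p = 1.31e-09), so the UGM samples were among the dimmest on the array. Shox2, a short stature homeobox factor, was 47.9-fold lower in UGM. Tbx15, a T-box factor of dorsal dermis, differed by -4.17 (SE 0.16), and Meox2, a homeobox factor of somites, by -3.86 (SE 0.19).

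Twist1 and Twist2, basic helix-loop-helix factors of dermal fibroblasts, were well above the array median in both tissues. Twist1 averaged 9.05 ± 0.09 in UGM (SD, n = 5) and 11.09 ± 0.30 in dermis (SD, n = 4; difference -2.04, SE 0.13). Twist2 averaged 10.72 ± 0.20 in UGM (SD, n = 5) and 12.64 ± 0.19 in dermis (SD, n = 4; difference -1.92, SE 0.13). En1 differed by -1.32 (SE 0.16), with all UGM samples below the lower quartile of the array. Pax3, a paired box factor of somites and pigment cells, differed by -1.14 (SE 0.12) and was neither higher nor lower in epidermis. Msx1, a homeobox factor of many mesenchymes, was the 1 member higher in UGM (1.01, SE 0.15), and this call was lost without UGM replicate 5 (0.89) or dermis replicate 1 or 3 (0.96 and 0.97).

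**Figure D3:**
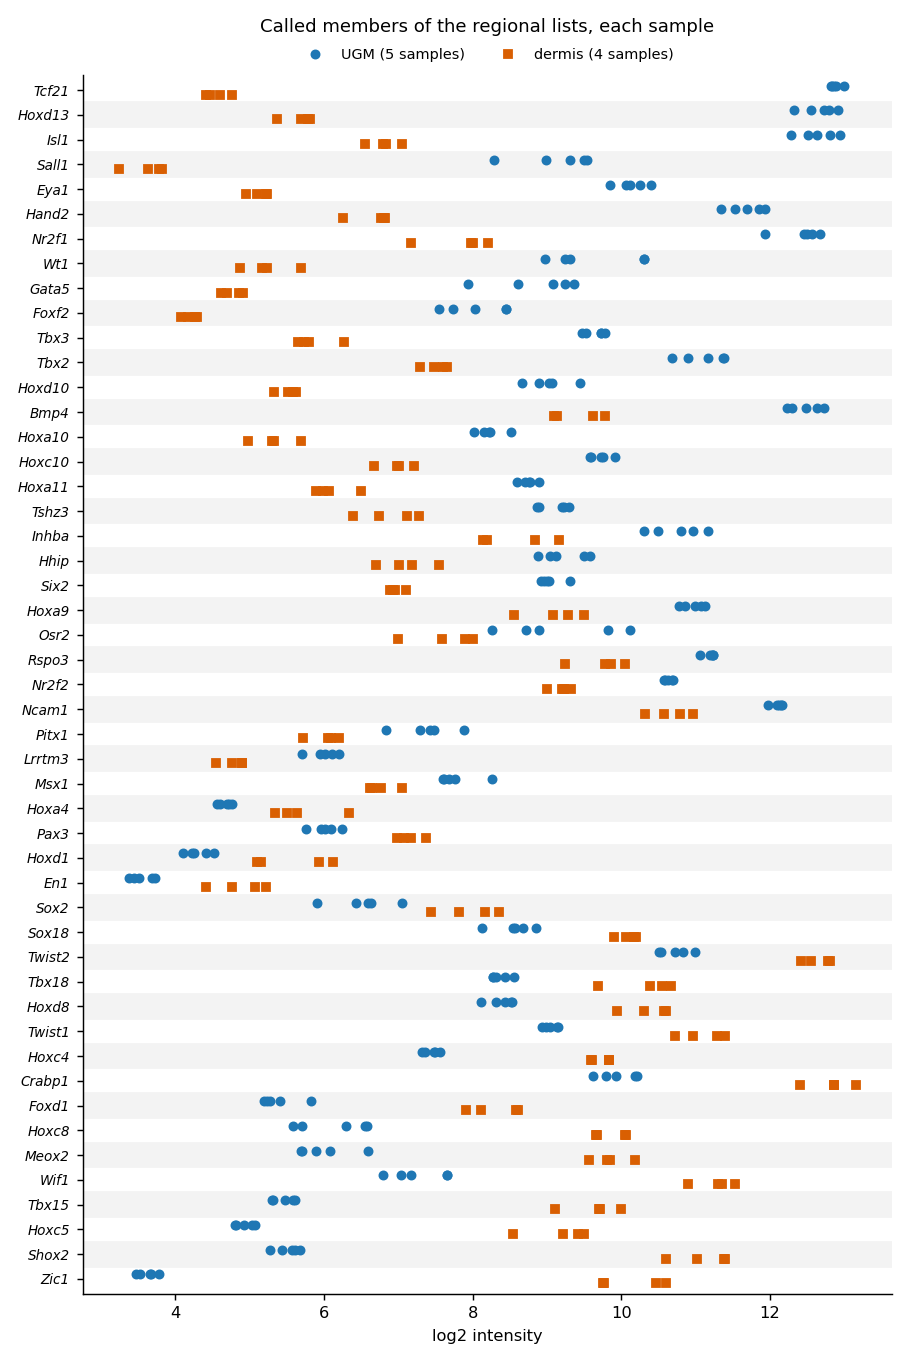
Log2 intensity of every called gene of the regional lists in each UGM sample (circles) and each dermis sample (squares), ordered by the difference, UGM minus dermis. Tcf21 at the top differs by 8.32 and Zic1 at the bottom by -6.53, and the groups do not overlap in any row drawn.

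Genes of the dermal condensate, the cell cluster under the hair placode, were divided, with 6 of 20 measured members higher in UGM and 6 lower (median difference 0.24). Among those lower in UGM were Wif1, a secreted Wnt inhibitor (-4.01, SE 0.20), the forkhead gene Foxd1 (-2.92, SE 0.18), the retinoid-binding Crabp1 (-2.87, SE 0.17), Sox18 (-1.53, SE 0.14) and Sox2 (-1.42, SE 0.23). Among those higher in UGM were Bmp4 (12.29, 12.23, 12.72, 12.64 and 12.49 in UGM, against 9.13, 9.62, 9.78 and 9.09 in dermis, adjusted p = 1.59e-07), Inhba, the activin A subunit (2.16, SE 0.24), and Hhip, a hedgehog decoy receptor (2.11, SE 0.19). Ncam1 (1.44, SE 0.12), Rspo3 (1.46, SE 0.14) and Lrrtm3 (1.22, SE 0.12) were higher in UGM too. Ncam1 had 2 of its 7 probe sets called, and its median over the probe sets was -0.20.

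Whether the site difference was the same in the epithelia was tested for the 49 called regional genes as (UGM minus dermis) minus (UGE minus epidermis) over all 19 samples, a test that called 12.9% of all genes, 5.41% with a positive and 7.53% with a negative value. It called 28 of the 49, with 15 positive and 13 negative values. The 49 were chosen by UGM minus dermis, which is part of the tested value. Their share therefore cannot be weighed against that of all genes. Dermis and epidermis each carried transcripts of the other, as given above. UGE replicates 1 to 3 carried mesenchymal transcripts (general mesenchyme list medians 7.61, 9.52 and 9.28, against 6.11 to 6.29 in replicates 4 to 6). Without UGE replicates 2 and 3, the test called 32 of the 49, with 19 positive and 13 negative values. Tcf21 (5.41, adjusted p = 0.00182), Eya1 (4.46, adjusted p = 8.92e-12) and Foxf2 (3.36, adjusted p = 4.94e-08) differed between sites more in mesenchyme than in epithelium. Zic1 (-5.09, adjusted p = 1.77e-09) and Shox2 (-4.004, adjusted p = 3.42e-09) did so in the other direction.

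For Hoxd13 the site difference was 6.99 in mesenchyme and 6.50 in epithelium, and the test of the difference between them missed the threshold (0.49, SE 0.18, adjusted p = 0.0664). Isl1 (5.83 in mesenchyme and 6.44 in epithelium, adjusted p = 0.241) and Hoxa10 (2.90 and 3.27, adjusted p = 0.291) also missed it. Sox2 was the most discordant gene of the 49, at -1.42 in mesenchyme and 5.89 in epithelium (adjusted p = 1.05e-11). Hoxd8 and Hoxd1 were likewise lower in UGM than in dermis but higher in UGE than in epidermis, by 2.12 and 2.597, in a comparison that found 7.88% of all genes higher and 5.58% lower in UGE.

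Retinoic acid genes were among the signalling lists with the highest share of members called. Of 17 measured members, 8 were higher in UGM and 2 were lower (median difference 0.70). Aldh1a2, the main retinoic acid synthesising enzyme of embryonic mesoderm, lay at 12.58, 12.57, 12.51, 12.63 and 12.48 in UGM, against 6.51, 6.46, 6.59 and 6.26 in dermis (68.4-fold, adjusted p = 1.98e-11). The spread in each group was a small fraction of the gap. Rarb, a retinoic acid receptor and known retinoic acid target, differed by 3.46 (SE 0.18), and Stra6, the retinol transporter, by 3.07 (SE 0.22). Cyp26b1, an enzyme that degrades retinoic acid, was lower in UGM (-1.75, SE 0.11), as was Crabp1. The related degrading enzyme Cyp26a1 was among the 8 higher in UGM, so genes of degradation went both ways.

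Called BMP genes were mainly higher in UGM, and TGF-beta genes went both ways. Of 24 BMP pathway genes, 6 (25%) were higher in UGM and 2 (8.33%) were lower (median 0.51). The share lower is near the 7.16% of all genes. The ligand Gdf10 differed by 2.66 (SE 0.17) and Bmp5 by 1.95 (SE 0.28), whereas the secreted antagonists Sostdc1 (-2.93, SE 0.12) and Fst (-1.86, SE 0.16) were lower in UGM. Bmp5 had 1 of its 3 probe sets called, and its median over them was 0.115. Both antagonists were neither higher nor lower in epidermis than in dermis. Of 16 TGF-beta and activin genes, 6 were higher in UGM and 3 were lower, with a median of -0.10, and at an unadjusted p under 0.05 these were 7 and 7. Tgfb2 (2.23, SE 0.12) and the TGF-beta induced matrix gene Tgfbi (2.47, SE 0.11) were higher in UGM with all 4 probe sets of each called, while the co-receptor Tgfbr3 (-2.27, SE 0.12) and Tgfb1 (-1.44, SE 0.16) were lower.

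Wnt genes were divided too. Of 35 measured ligands and modulators, 8 were higher in UGM and 11 were lower (median -0.50), and of those 11, 3 were higher in epidermis than in dermis and 4 were neither. Wnt5b (2.06, SE 0.17) and the Wnt antagonist Sfrp1 (2.07, SE 0.19) were higher in UGM. So were the secreted modulators Sfrp2, Frzb, Dkk2 and Dkk3. The secreted antagonists Sfrp5 (-3.06, SE 0.20), Dkk1 (-2.87, SE 0.12) and Wif1 were lower in UGM and lower in epidermis. Dkk4 was lower in UGM too. Dkk1 lay at 6.05, 6.11, 5.77, 5.88 and 6.13 in UGM, against 8.61, 9.13, 8.94 and 8.75 in dermis (adjusted p = 2.79e-08), with no overlap.

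Of 20 FGF pathway genes, 2 (10%) were higher in UGM and 6 (30%) were lower (median -0.31), against 7.06% and 7.16% of all genes. Fgf9, a ligand of epithelium and mesothelium, differed by 2.83 (SE 0.13). Fgf7, a ligand that mesenchyme makes for epithelium, was lower in UGM (6.22, 6.88, 5.51, 5.55 and 5.66 in UGM, against 6.94, 7.54, 7.96 and 7.49 in dermis, difference -1.52, SE 0.29, adjusted p = 0.00171). UGM replicate 2 came close to the lowest dermis sample. Dusp6 (-1.58, SE 0.27) and Spry1 (-1.29, SE 0.17), negative feedback genes of FGF signalling, were lower in UGM and not called between epidermis and dermis. Fgf13 was 2.09-fold higher in UGM and lost its call without UGM replicate 1 or dermis replicate 1 (0.97 and 0.98).

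Of 11 measured steroid hormone genes, 3 were higher in UGM and 2 were lower (median -0.24). Esr1, the estrogen receptor alpha, lay at 9.85, 9.35, 9.91, 9.83 and 9.77 in UGM, against 7.18, 7.34, 7.39 and 7.19 in dermis (5.52-fold, adjusted p = 6.95e-08). Hsd11b2, which inactivates glucocorticoids, differed by 2.98 (SE 0.26). Pgr, the progesterone receptor, differed by 1.64 (SE 0.32), with dermis values of 7.17, 5.09, 6.40 and 6.16 that were highest in the replicate richest in epidermal transcripts. Nr3c1, the glucocorticoid receptor, was lower in UGM (-1.32, SE 0.12), was not called between epidermis and dermis, and changed sign to 0.98 after subtraction of the basal share. Hsd11b1 (-1.18, SE 0.27), which was higher in epidermis than in dermis, changed sign under both subtractions and lost its call when any of UGM replicates 1, 3 and 4 or dermis replicates 1 and 4 was left out (-0.88 to -1.21).

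Igf1 lay at 13.21, 13.01, 12.85, 12.99 and 12.32 in UGM, against 10.96, 11.43, 11.80 and 11.73 in dermis (2.64-fold, adjusted p = 0.00029), and the binding protein Igfbp5 was 2.78-fold higher in UGM. Igf2, by contrast, was 2.10-fold lower in UGM and was not called between epidermis and dermis. Pdgfd differed by 2.40 (SE 0.14), while its relative Pdgfa, a ligand of epidermis and other epithelia, differed by -1.97 (SE 0.16) and was not called between epidermis and dermis. Of 15 measured hedgehog genes, Hhip was higher in UGM and Cdon, a hedgehog co-receptor, was lower (-1.06, SE 0.23, adjusted p = 0.00391). That is 6.67% each way (median 0.02), no more than the 7.06% and 7.16% of all genes. The Cdon call was lost without UGM replicate 3 or 4 or without dermis replicate 2, 3 or 4 (-0.94 to -1.07).

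Of 21 genes of angiotensin, endothelin and nitric oxide signalling, 5 (23.8%) were higher in UGM and 2 (9.52%) were lower (median -0.04). All 5 belong to the nitric oxide and cyclic GMP pathway, among them Nos1, the neuronal nitric oxide synthase (2.08, SE 0.13), Gucy1a1, a subunit of its receptor guanylate cyclase (2.43, SE 0.13), and Pde5a, which degrades cyclic GMP (2.45, SE 0.24). Agtr1a, the angiotensin II receptor, was lower in UGM (-2.98, SE 0.17). Of 25 axon guidance genes, 8 (32%) were higher in UGM and 2 (8%) were lower (median 0.16). The share lower is near the 7.16% of all genes. Epha5 (4.48, SE 0.24) and Epha7 (2.75, SE 0.13), receptors for ephrin-A ligands, and the netrin receptor Unc5c (3.08, SE 0.17) were higher in UGM, whereas the ligands Ntn1 (-2.49, SE 0.13) and Sema3d (-1.90, SE 0.26) were lower.

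**Figure D4:**
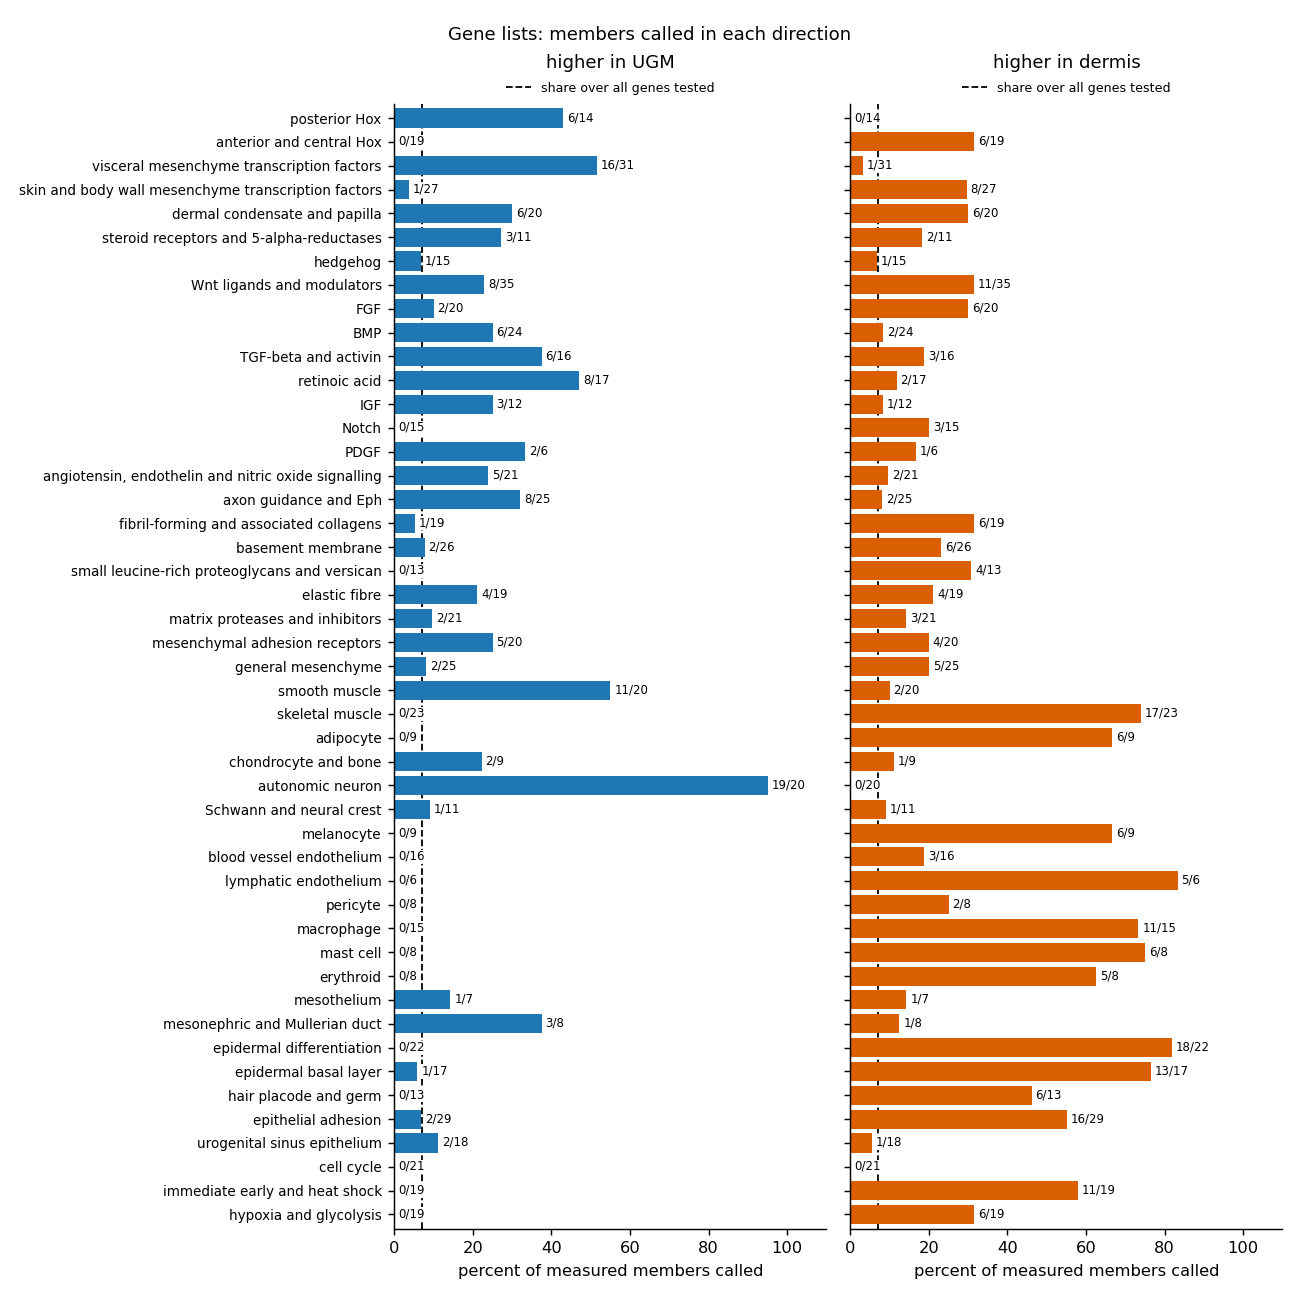
Percent of the measured members of each gene list that were called higher in UGM (left) and higher in dermis (right), with numbers called of numbers measured; the dashed lines mark 7.06% and 7.16%, the shares over all genes tested. The neuron list leads on the left with 19 of 20, and the lymphatic endothelium list leads on the right with 5 of 6, ahead of epidermal differentiation with 18 of 22 and the basal layer with 13 of 17.

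Collagens, basement membrane genes and proteoglycans had more members lower than higher in UGM. Of 19 measured fibrillar and associated collagens, 6 were lower in UGM and 1 was higher (median -0.76), and all 6 were also lower in epidermis than in dermis. After subtraction of the basal share, 12 of the 19 were lower in UGM. The subtraction raises dermis for any gene lower in epidermis, so this count adds no support. Col6a3, a chain of microfibrillar collagen VI, lay at 12.32, 12.29, 11.94, 12.27 and 12.24 in UGM, against 13.40, 13.93, 13.96 and 13.90 in dermis (difference -1.58, SE 0.13, adjusted p = 5.07e-06). Col5a3 differed by -2.64 (SE 0.18) and Col12a1 by -1.36 (SE 0.12), while Col9a1, best known from cartilage, was higher in UGM (1.31, SE 0.23).

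Of 13 small leucine-rich proteoglycans, which bind collagen fibrils, 4 were called and all of these were lower in UGM (median of the list -0.43). Aspn lay at 7.20, 7.43, 6.75, 6.41 and 6.87 in UGM, against 10.87, 10.86, 11.14 and 11.33 in dermis (17.3-fold lower in UGM, adjusted p = 5.53e-08). Prelp differed by -2.67 (SE 0.10), Lum by -2.34 (SE 0.20) and Fmod was 2.01-fold lower in UGM. Fmod had 1 of 6 probe sets called and lost its call when UGM replicate 1, 3 or 4 or dermis replicate 2 or 3 was left out (differences of -0.90 to -1).

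Elastic fibre genes were divided, with 4 of 19 higher in UGM and 4 lower. Those lower in UGM were led by Ltbp2 (-3.25, SE 0.18), Emilin2 (-2.75, SE 0.12) and Fbln2 (-1.93, SE 0.23). After either subtraction the list held no call in favour of UGM, but the subtraction by construction raises dermis for genes lower in epidermis. In the basement membrane list, Lama1 (2.50, SE 0.12) and Npnt (1.52, SE 0.12) were higher in UGM and 6 of the 26 members were lower. The 2 higher are 7.69%, near the 7.06% of all genes. Npnt had 2 of its 5 probe sets called, and its median over them was 0.12. Of the 6 lower in UGM, 1 was lower in epidermis than in dermis, 1 was higher and 4 were neither. Lama3 and Lamb3, both among the 6, are also on the basal layer list. Col7a1, the anchoring fibril collagen under the epidermis, was another of the 6 (-3.06, SE 0.15) and was not called between epidermis and dermis. Of 20 mesenchymal adhesion receptors, 5 were higher in UGM (Itga8, Itgb8, Cdh2, Ncam1 and Alcam) and 4 were lower (median -0.30). Thy1 (-3.16, SE 0.13) and Vcam1 (-2.29, SE 0.18) were lower in UGM, and Cdh2, the neural cadherin, was higher (1.83, SE 0.17). Postn, a matricellular protein, differed by -2.26 (SE 0.19) and was not called between epidermis and dermis.

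The dissected samples differed in the kind of muscle genes they held, and whether muscle beneath the skin was taken with the dermis was not tested. Of 20 measured smooth muscle genes, 11 were higher in UGM and 2 were lower (median 1.20), whereas of 23 skeletal muscle genes 17 were called and all of these were lower in UGM (median -3.13). Cnn1, the smooth muscle calponin, lay at 8.96, 9.57, 9.58, 9.22 and 9.61 in UGM, against 4.81, 4.86, 4.60 and 4.81 in dermis (24.5-fold, adjusted p = 2.63e-09). All 4 dermis samples lay at or near the lower quartile of their arrays. Myh11, the smooth muscle myosin (4.41, SE 0.12), Actg2, the enteric actin (4.30, SE 0.16), Synpo2 (4.25, SE 0.14) and Myl9, a myosin light chain (2.25, SE 0.16), were higher in UGM with it. Acta2, smooth muscle alpha actin, was bright in both, with 13.77 ± 0.07 in UGM (SD, n = 5) and 12.23 ± 0.21 in dermis (SD, n = 4; difference 1.53, SE 0.10). Acta2 had 1 of 3 probe sets called, and its median over them was -0.12. Casq2, a calsequestrin of heart and slow muscle, was lower in UGM (-2.08, SE 0.18).

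Among the skeletal muscle genes, Myh3, the embryonic myosin, lay at 5.67, 6.73, 5.39, 5.83 and 7.94 in UGM, against 10.97, 10.997, 10.96 and 12.24 in dermis (difference -4.98, SE 0.49, adjusted p = 1.53e-05). UGM replicate 5 was the highest of the UGM samples and dermis replicate 4 of the dermis samples. Both also had the highest list median of their group, 6.64 for that UGM sample and 9.48 for that dermis sample, against 5.79 to 6.27 in the other UGM samples and 7.84 to 8.44 in the other dermis samples. Ttn, the sarcomeric spring titin (-4.61, SE 0.35), Acta1, skeletal alpha actin (-4.38, SE 0.34), Tnnc2, fast troponin C (-4.30, SE 0.33), and Actc1, cardiac alpha actin (-3.19, SE 0.34), were likewise highest in these samples of their groups. The sum of the 23 intensities was 3252 to 6901 in UGM, against 19990 to 41560 in dermis, and all 17 called genes were lower in epidermis than in dermis.

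Promoters of contractile genes of either kind are shown because known control elements of muscle can be read in them. The CArG box, bound by serum response factor, and the E-box CAGCTG, bound by MyoD and its relatives, were searched on both strands over the 250 bases before and the 50 bases after each RefSeq transcription start (GRCm38.p6). A CArG box was held by 2 of 16 smooth muscle genes with a promoter entry and by 2 of 16 skeletal muscle genes, against 1.81% of all 27025 genes with a promoter entry. CAGCTG, which reads the same on both strands, was held by 4 of 16 and by 7 of 16, against 18.3% of all genes with an entry. In the sequences below the capitals mark the CArG box of Myl9 (chr2:156775214-156775513, plus strand) and of Actc1 (chr2:114052826-114053125, minus strand), which begin 161 and 47 bases before the start, and the E-boxes of Chrna1 (chr2:73580289-73580588, minus strand), at 92 and 44 bases, and of Mylpf (chr7:127211358-127211657, plus strand), at 51 bases. A match describes these letters only.
Myl9: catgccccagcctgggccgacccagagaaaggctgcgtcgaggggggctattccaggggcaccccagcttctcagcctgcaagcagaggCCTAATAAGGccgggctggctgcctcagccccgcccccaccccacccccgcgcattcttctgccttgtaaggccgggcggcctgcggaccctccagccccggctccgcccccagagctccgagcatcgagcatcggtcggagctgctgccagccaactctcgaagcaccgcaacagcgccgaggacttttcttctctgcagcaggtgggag
Actc1: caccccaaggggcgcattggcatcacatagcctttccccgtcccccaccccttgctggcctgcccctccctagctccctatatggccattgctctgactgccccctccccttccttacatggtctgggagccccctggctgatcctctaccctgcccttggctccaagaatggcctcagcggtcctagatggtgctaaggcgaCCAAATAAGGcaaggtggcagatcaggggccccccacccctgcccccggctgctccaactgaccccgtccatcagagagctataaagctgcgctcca
Chrna1: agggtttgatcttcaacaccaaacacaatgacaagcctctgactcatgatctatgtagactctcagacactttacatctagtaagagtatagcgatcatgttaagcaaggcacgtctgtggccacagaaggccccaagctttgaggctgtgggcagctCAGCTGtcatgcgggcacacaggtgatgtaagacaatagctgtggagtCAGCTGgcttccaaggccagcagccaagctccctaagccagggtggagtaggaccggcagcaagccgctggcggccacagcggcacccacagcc
Mylpf: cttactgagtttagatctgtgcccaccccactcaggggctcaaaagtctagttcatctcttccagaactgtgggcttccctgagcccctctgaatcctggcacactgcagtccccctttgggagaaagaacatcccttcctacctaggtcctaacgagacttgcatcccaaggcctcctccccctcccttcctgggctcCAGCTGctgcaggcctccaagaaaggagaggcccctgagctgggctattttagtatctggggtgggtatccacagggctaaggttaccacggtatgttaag

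Of these 4 genes, Myl9 was higher in UGM and the other 3 were lower. Chrna1, the muscle acetylcholine receptor alpha subunit, differed by -1.98 (SE 0.19), and Mylpf, the fast myosin light chain, by -3.56 (SE 0.33). Both were chosen for their promoters after their values were seen. Chrna1 lay at 5.86, 5.81, 5.71, 5.62 and 6.64 in UGM, against 7.86, 8.18, 7.84 and 7.73 in dermis, and the groups did not overlap.

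Among the lists, that of neuronal genes had the highest share of members called higher in UGM. Of 20 measured genes of autonomic neurons, 19 were higher in UGM (median 4.56), and the summed intensity was 45690 to 59300 in UGM, against 2752 to 3630 in dermis. Nefm, a neurofilament, lay at 12.04, 11.91, 11.94, 11.94 and 11.95 in UGM, against 4.28, 4.59, 4.57 and 4.64 in dermis (173-fold, adjusted p = 6.11e-12). The UGM samples were nearly identical to each other. Nefl (6.92, SE 0.21), Prph, the peripheral neuron filament (6.65, SE 0.13), Stmn3 (6.62, SE 0.14), the synaptic Snap25 (6.04, SE 0.10) and Ret, the receptor of glial cell line-derived neurotrophic factor (5.81, SE 0.14), followed. Prph had 1 of its 4 probe sets called, and its median over them was 0.45. Outside the list, Calcb, a calcitonin gene-related peptide, differed by 6.80 (SE 0.15) and Elavl2, a neuronal RNA-binding protein, by 6.68 (SE 0.14). Pelvic ganglia lie beside the urogenital sinus, and whether the dissected UGM held them was not tested. Of 11 genes of Schwann cells and neural crest, by comparison, 1 was higher in UGM, Fabp7 (2.47, SE 0.13), and 1 was lower, Egr2 (-2.09, SE 0.16), which was not called between epidermis and dermis. That is 9.09% each way, near the 7.06% and 7.16% of all genes.

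Several blood-borne and vascular cell types were represented more strongly in dermis. Of 8 measured mast cell genes, 6 were lower in UGM (median -2.78). Cpa3, the mast cell carboxypeptidase, lay at 5.58, 5.93, 5.26, 5.68 and 5.28 in UGM, against 13.09, 13.48, 13.33 and 13.54 in dermis (225-fold lower in UGM, adjusted p = 1.85e-10). All UGM samples were under their array's median. The chymase Cma1 differed by -7.29 (SE 0.12) and the tryptase Tpsb2 by -4.80 (SE 0.18), and the summed intensity of the list was 1775 to 2197 in UGM, against 25410 to 33700 in dermis.

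Of 15 macrophage genes, 11 were lower in UGM (median -1.39), and all 11 were also lower in epidermis than in dermis. F13a1, coagulation factor XIII of tissue macrophages, differed by -4.82 (SE 0.19) and the mannose receptor Mrc1 by -3.25 (SE 0.20), whereas Csf1r, the receptor that all macrophages need, was 10.69 ± 0.18 in UGM (SD, n = 5) and 11.80 ± 0.07 in dermis (SD, n = 4; difference -1.11, SE 0.10). Macrophage genes were thus lower in UGM to very unequal degrees. Of 6 lymphatic endothelial genes, 5 were lower in UGM (median -1.66). Lyve1, the lymphatic hyaluronan receptor, which some macrophages also express, lay at 5.72, 6.85, 4.82, 4.80 and 6.07 in UGM, against 10.83, 11.38, 11.52 and 11.64 in dermis (51.6-fold lower in UGM, adjusted p = 9.36e-07), and Mmrn1 differed by -3.11 (SE 0.22).

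Genes of blood vessel endothelium differed less. Of 16 measured members, 3 were lower in UGM (median -0.63), among them Erg (-1.97, SE 0.14) and Cdh5, the vascular cadherin (-1.02, SE 0.19), whose call was lost without UGM replicate 3 or 4 or dermis replicate 4 (-0.87 to -0.998). After subtraction of the differentiation or basal share, 7 and 13 of the 16 were lower in UGM. By construction, genes lower in epidermis gain in dermis there, so these counts are no separate evidence. Erythroid genes were lower in UGM for 5 of 8 members (median -1.28), led by the anion exchanger Slc4a1 (-1.92, SE 0.17). Hbb-y, an embryonic globin, was the brightest of them and was not called on its main probe set (-0.31, SE 0.14, adjusted p = 0.0943), while another of its 3 probe sets was called.

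Of 9 adipocyte genes, 6 were lower in UGM (median -2.28), with Fabp4 at -4.79 (SE 0.24), the fatty acid transporter Cd36 at -4.19 (SE 0.24) and the adipogenic factor Pparg at -3.54 (SE 0.11). Fabp4 lay at 6.11, 6.25, 5.37, 5.62 and 6.38 in UGM, against 10.52, 10.56, 10.53 and 11.35 in dermis, highest in dermis replicate 4. Pparg was not called between epidermis and dermis. Of 9 melanocyte genes, 6 were lower in UGM (median -1.46), and 4 of the 6 were higher still in epidermis. Among those 4 were the pigment enzyme Dct (-3.45, SE 0.15) and the melanosome protein Pmel (-2.67, SE 0.22), which changed sign to 1.60 and 2.48 after subtraction of the basal share, whereas the receptor Kit (-1.56, SE 0.24), shared with mast cells, was lower in epidermis.

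**Figure D5:**
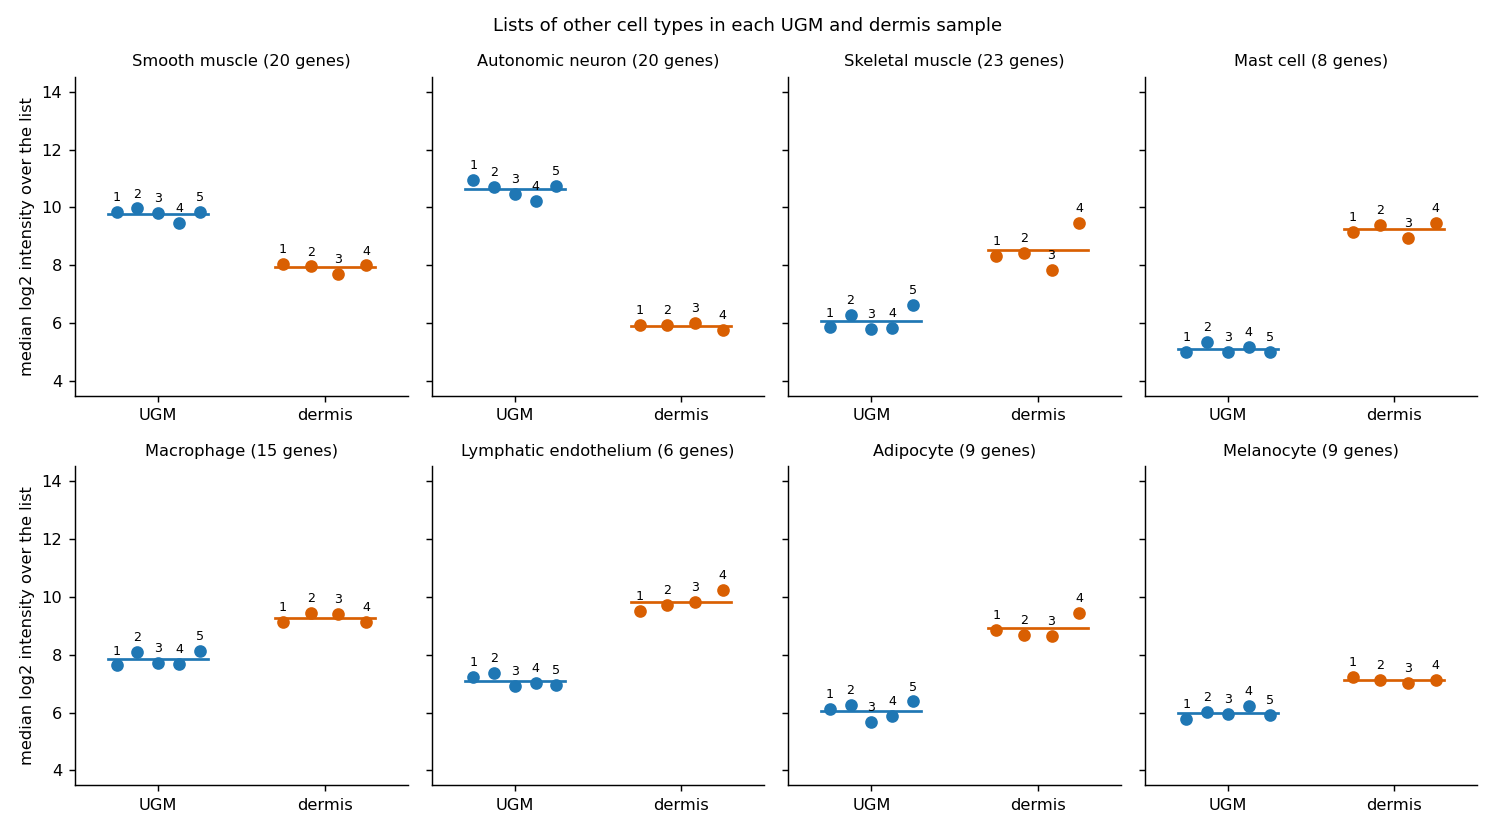
Median log2 intensity of 8 lists of other cell types in each UGM sample and each dermis sample; numbers are replicates and lines are means of the samples. Smooth muscle and neuron lists lie higher in all 5 UGM samples, and the other 6 lists lie higher in all 4 dermis samples.

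Genes that respond to handling moved with the groups as well. Of 19 immediate early and heat shock genes, 11 were lower in UGM (median -1.35). Fos lay at 8.57, 10.28, 7.30, 8.57 and 8.35 in UGM, against 11.38, 10.91, 11.97 and 13.08 in dermis (difference -3.22, SE 0.56, adjusted p = 0.00087), and its spread was wide in both groups; it was not called between epidermis and dermis. The heat shock genes Hspb1 (-3.94, SE 0.39) and Hspa1b (-2.84, SE 0.29) were higher in epidermis than in dermis, and Fos, Hspb1 and Hspa1b changed sign after subtraction of the basal share (1.73, 2.54 and 2.69). Of 19 hypoxia and glycolysis genes, 6 were lower in UGM (median -0.56), among them the oxygen sensor Egln3 (-3, SE 0.28), which was higher in epidermis than in dermis. Of 21 cell cycle genes, limma called 0 and the methods' t-test called 0, while 14 were lower and 1 was higher in UGM at an unadjusted p under 0.05 (median -0.38).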

How the data were processed

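Total RNA of each tissue pool was amplified, labelled and hybridised to MOE430 2.0 arrays. The authors deposited 1 linear-scale intensity for each probe set and array, made comparable across arrays beforehand. The submitters' processing notes name GCOS 1.4, the study also names MAS5 and PLIER, and the sources used here do not say which of them gave the table. Values ran from 7.40 to 33140.7. They were taken as log2 without further normalization, and the number of arrays limits the precision. The 64 control probe sets among 45101 were dropped, and the test was run on the 41549 that exceeded 20 on any of the 19 arrays. Of all probe sets, 34945 have 1 gene symbol, 932 have several (not used for genes) and 9160 are unnamed here; 17360 genes were tested, each by the brightest of its tested probe sets (mean log2 over all 19 arrays).

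UGM (5) and dermis (4) were compared with R 4.3.3 and limma 3.58.1, using the moderated 2-sided statistics of lmFit with eBayes; every adjusted p is limma's with the Benjamini-Hochberg method over all tested probe sets, and a call needs an adjusted p under 0.01 and over 2-fold, the thresholds of the methods. Epidermis against dermis and UGE against UGM were fitted the same way in their own samples, and the site difference of mesenchyme minus that of epithelium in a fit of all 4 groups. The scripts were tested on simulated data with 200 changed probe sets. The members and gene lists were chosen with earlier results of these data known. Genes were named by a rule: the called genes with the widest difference in each class, up to 4 called members of each list, those against its majority, every called regional gene and the brightest markers of other cell types; Chrna1 and Mylpf lie outside it. Subtraction used (dermis - f x epidermis mean)/(1 - f), with f the median over list genes of (dermis - UGM mean)/(epidermis mean - UGM mean) and a floor of 20. Alternatives covered normalization, filters, an offset of 50, thresholds, tests, left-out replicates, subtraction and the choice of probe set. Same-numbered samples of UGM and dermis were compared for pairing.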

Additional observations from a re-analysis of the deposited data

Results flagged for a closer look

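Over the 340 groups of samples of the named genes, 28 had 1 sample whose gap to the nearest other sample exceeded Dixon's 95% limit for its group size, 14 in UGM and 14 in dermis; chance alone marks about 5% of groups. In dermis, replicate 1 stood apart for Hand2 (6.26), Stra6 (5.68), Spry1 (10.19), Col6a3 (13.4), Cdh2 (6.89), each of them lower there than in the other dermis samples, and for Prph (5.73), which was higher there. Replicate 4 stood apart for Ttn (11.39), Myh3 (12.24), Egr2 (7.58), Fabp4 (11.35) and Npnt (9.59), all higher there, and for Tgfb1 (7.23), which was lower. The others were Emilin2 in replicate 2 (11.75) and Nr3c1 in replicate 3 (10.34). In UGM, replicate 2 stood apart for Krt5 (8.78) and Krt4 (8.84), both higher there, and for Nr2f1 (11.93) and Esr1 (9.35), both lower. Replicate 5 did so for Chrna1 (6.64), Msx1 (8.26), Prelp (5.63) and Hspa1b (9.9), all higher, and for Nr3c1 (8.43) and Epha7 (10.28), both lower. The rest were Six2 in replicate 1 (9.31), Rspo3 (11.06) and Col6a3 (11.94) in replicate 3, and Tgfbi in replicate 4 (12.45).

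For 28 regional genes the site difference of mesenchyme minus that of epithelium passed the threshold in limma. Positive values were found for Tcf21 (5.41), Eya1 (4.46), Sall1 (4.19), Hand2 (3.98), Gata5 (3.71), Foxf2 (3.36), Wt1 (3.13), Hoxc10 (2.85), Hhip (2.34), Inhba (1.9), Bmp4 (1.73), Six2 (1.71), Tshz3 (1.51), Pitx1 (1.15) and Hoxa4 (1.07). Negative values were found for Sox2 (-7.31), Zic1 (-5.09), Hoxd8 (-4.1), Hoxa9 (-4.01), Shox2 (-4), Hoxd1 (-3.87), Tbx15 (-3.18), Wif1 (-3.14), Meox2 (-2.59), Foxd1 (-2.17), Hoxc5 (-1.81), Tbx3 (-1.31) and En1 (-1.18). Hoxa9 was higher at the urogenital site in both layers, by 1.86 in mesenchyme and by 5.87 in epithelium.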

How the results depend on the processing

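Of 2469 genes called, the settings below gave other counts where stated. With 50 added before log2, 3147 probe sets were called, against 5246 in the comparison as reported, with 1735 higher in UGM and 1412 higher in dermis. Genes called under this setting numbered 1739 (892 higher in UGM and 847 in dermis). A test against a 2-fold change (limma treat) called 1640 probe sets (914 higher in UGM and 726 in dermis) and 1010 genes (533 and 477). After subtraction of the basal share from dermis, 8369 probe sets were called, 5750 of them higher in UGM, and 2200 genes were higher in UGM, which made up 61.3% of called genes, against 49.7% in the comparison as reported and 55.9% with the differentiation share. Sorting by over 4-fold between means in place of the call put 226 genes higher in epidermis, 307 lower and 710 in neither class, and of the genes higher in UGM, 14 higher in UGE, 409 lower and 803 in neither class. Leaving out 1 replicate gave 2344 to 2519 genes, 1173 to 1268 higher in UGM and 1159 to 1264 in dermis, 4807 to 5599 probe sets, and 25 to 31 regional genes with a differing site effect. The methods' t-test called 2251 genes. Same-numbered UGM and dermis samples correlated at -0.37, -0.06, 0.07 and 0.14, and differently numbered ones at up to 0.37. No pairing by number showed, but this check cannot exclude that pools shared embryos. A replicate block called 2455 genes.

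Of 170 named genes, Hsd11b1 (1.86 and 2.31) and Krt4 (0.85 and 2.48) changed sign with the differentiation and the basal share. With the basal share, Hoxa4 (0.35), Nr3c1 (0.98), Dct (1.60), Pmel (2.48), Col17a1 (0.049), Calm4 (0.59), Fos (1.73), Hspb1 (2.54), Hspa1b (2.69) and Egln3 (2.56) did so too, by the construction of the subtraction. With the median over a gene's probe sets, Ncam1 (-0.20) and Acta2 (-0.12) changed sign. The calls of 37 named genes were lost in treat, 13 with 50 added, 23 with the median over probe sets and 5 without dermis replicate 1. Among lists with few calls, collagens higher in UGM numbered 3 without dermis replicate 2 and 2 without UGM replicate 2 or 3 or dermis replicate 4, smooth muscle genes higher in dermis 1 without dermis replicate 4, hedgehog genes and anterior Hox genes higher in UGM 2 and 1 without dermis replicate 3, and cell cycle genes higher in UGM 1 without UGM replicate 2 or 5 or dermis replicate 2. Differences of dim genes are limited by the background of the array, so the folds of genes such as Zic1 and Dsc1 depend on it.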

Other observations

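Other gene groups outside the comparisons above gave mixed counts. Over all genes 7.06% were higher in UGM and 7.16% were higher in dermis, so 1 or 2 calls in the small lists below say little about those lists. Of 15 measured Notch genes, Notch1, Jag2 and Dll1 were higher in dermis, Notch1 being higher still in epidermis and the other two neither higher nor lower there. Of 13 genes of the hair placode and germ, 6 were higher in dermis (median -0.69), among them Edar, Lhx2 and Dkk4. Of the 6, Lhx2 was lower in epidermis than in dermis and 5, Edar and Dkk4 among them, were neither. Of 29 genes of epithelial adhesion, 2 were higher in UGM (Cldn7 and Krt18) and 16 were higher in dermis, 15 of these also higher in epidermis. Of 8 genes of the mesonephric and Mullerian ducts, Amhr2, Cdh16 and Npnt were higher in UGM and Emx2 was higher in dermis. Of 8 pericyte genes, Kcnj8 and Anpep were higher in dermis, and of 9 cartilage and bone genes Col9a1 and Hapln1 were higher in UGM and Cnmd in dermis. Of 7 mesothelial genes, Wt1 was higher in UGM and Bnc1 in dermis, and Bnc1 was not called between epidermis and dermis.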
